A study of Mus musculus with 24 samples.

Results

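Collagens and laminins form the scaffold of the extracellular matrix, and their genes were followed here across 2 mouse embryonic stem cell (ESC) lines in which PRC1 can be removed or catalytically inactivated. The genes were chosen by symbol alone, as every row of the gene table named Col, a number, a and a number, or Lama, Lamb or Lamc and a digit, with the most abundant row kept where a symbol had several. This gave 55 of the 19409 gene symbols in the table: 11 fibrillar collagens, 8 basement membrane collagens (types IV, XV and XVIII), 11 laminin chains and 25 other collagens. Of these, 54 passed the filter on low counts (at least 10 reads in at least 3 of the 12 libraries). Col10a1, the collagen of hypertrophic cartilage, did not, with 0 reads in 11 libraries and 2 in the other.

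PRC1CKO ESCs (clone B9) carried Ring1a-/-, Ring1bfl/fl and Rosa26::ERT2-Cre, so that 4-hydroxytamoxifen (OHT) removes RING1B from cells that already lack RING1A. PRC1CPM ESCs (clone 41) carried Ring1aI50A/D53K, a conditional Ring1b allele switching from wild type to I53A/D56K, and Rosa26::ERT2-Cre, so that after OHT both proteins remain without ubiquitin ligase activity. Each line was 1 clone of E14 background, both expressed the inducible Cre from Rosa26, and neither untreated group had wild-type RING1A. Cells were left untreated or given 800 nM OHT for 72 h, with 3 biological replicates for every one of the 4 conditions, and RNA was measured by calibrated RNA-seq (cRNA-seq), in which Drosophila cells mixed in before extraction set the scale.

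Every collagen is a trimer of chains that wind into a triple helix. Fibrillar collagens (types I, II, III, V, XI, XXIV and XXVII) are cleaved outside the cell and assemble into the fibrils of bone, cartilage, skin and tendon, whereas type IV collagen forms an open network that lines epithelia, vessels and muscle as part of the basement membrane. Laminins are cross-shaped trimers of an alpha, a beta and a gamma chain that initiate basement membrane assembly. Laminin-111 and laminin-511 are made by the early embryo and by ESCs, which self-renew on laminin-511, while the fibrillar collagens are largely products of later mesenchymal, skeletal and skin cells. PRC1 is one of the Polycomb repressive complexes, which hold many developmental genes with CpG-rich promoters silent in ESCs.

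The libraries held between 14668159 and 27016156 reads on genes. Values below are normalised read counts, that is, reads over the gene body, introns included, divided by the library's spike-in size factor. The summed normalised read count was 24958331 in replicate 1 of untreated PRC1CKO cells against 17618069 and 17755844 in replicates 2 and 3, and 26077686 in replicate 1 of OHT-treated PRC1CPM cells against 17909909 and 21836456. Replicate 1 had the highest sum in all 4 conditions. Ring1b (Rnf2) had a mean of 1526 ± 201 (SD, n = 3) normalised reads in untreated and 1546 ± 50.8 in OHT-treated PRC1CKO cells, and 1696 ± 140 and 1511 ± 214 in PRC1CPM cells. The gene-body count spans exons outside the modified one, so it does not check the genotype. Of 9 ESC markers tested, Sox2 (log2 difference -0.89) and Utf1 (-0.79) fell in PRC1CKO cells after OHT and none passed the threshold in PRC1CPM cells, and all 9 were read in every library. By the limma threshold given below, 3.09% of all rows were lower in PRC1CKO and 1.4% in PRC1CPM cells.

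OHT treatment raised 30 of the 54 collagen and laminin genes tested in PRC1CKO cells and lowered 1, Col6a5 (limma, Benjamini-Hochberg adjusted p under 0.05 and more than 1.5-fold). Over all 16940 rows tested, 16.5% were higher and 3.09% lower by the same rule (19.5% in all). In PRC1CPM cells 22 of the 54 were higher and 0 lower, beside 13.1% and 1.4% of all rows. Without the filter on low counts, 16 members were higher in PRC1CKO and 11 in PRC1CPM cells. With 1 library left out, these counts ran from 21 to 36 and from 15 to 28. At an unadjusted p under 0.05, limma had 1 member lower in PRC1CPM cells, edgeR called 1 lower (Col1a2) and DESeq2 called 0. The median log2 difference of the members was 0.92 in PRC1CKO and 0.68 in PRC1CPM cells, against medians of 0.12 and 0.10 over all rows. The lines share no libraries in these 2 comparisons, and 21 members rose in both, beside 11.6% of all rows, 9 were called higher only in PRC1CKO cells, 1 (Col13a1) only in PRC1CPM cells and 22 were called in neither.

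By class, 7 of the 8 basement membrane collagens rose in PRC1CKO cells and 5 in PRC1CPM cells, with median log2 differences of 1.69 and 1.20. Fibrillar collagens divided, with 5 of 11 higher in PRC1CKO and 4 of 11 in PRC1CPM cells and medians of 0.59 and 0.47. Among the laminin chains 7 of 11 rose in PRC1CKO and 2 of 11 in PRC1CPM cells, with medians of 0.75 and 0.66. Over all rows tested, 16.5% were higher in PRC1CKO and 13.1% in PRC1CPM cells, and the PRC1CPM count of laminins was near that share. The laminin counts turned with the scaling, to 3 in PRC1CKO and 7 in PRC1CPM cells when the Drosophila totals were not corrected by gDNA-seq, and ran from 3 to 9 and from 1 to 5 with one library left out. Of the 24 other collagens tested, 11 rose in each line. With 1 library left out this count ran from 7 to 14 in PRC1CKO and from 6 to 12 in PRC1CPM cells. Without the filter on low counts it was 6 and 5. The difference between lines was tested for each gene as the interaction of line and treatment. No member passed it at an adjusted p under 0.05 with limma, edgeR or DESeq2, and 3 members had an unadjusted limma p under 0.05, namely Col2a1 (-1.03), Col27a1 (-0.83) and Col6a5 (1.20). Across all rows, 0.0236% passed, all with a negative interaction (PRC1CPM minus PRC1CKO). The smaller number of calls in PRC1CPM cells is thus not shown to be a difference between the lines in these fits. The replicate numbers are not stated to pair the libraries. Fitted as a block, they gave 2 members lower for the interaction, with 324 of the 16940 rows called. That fit called 6 laminins higher in PRC1CPM cells.

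**Figure D1:**
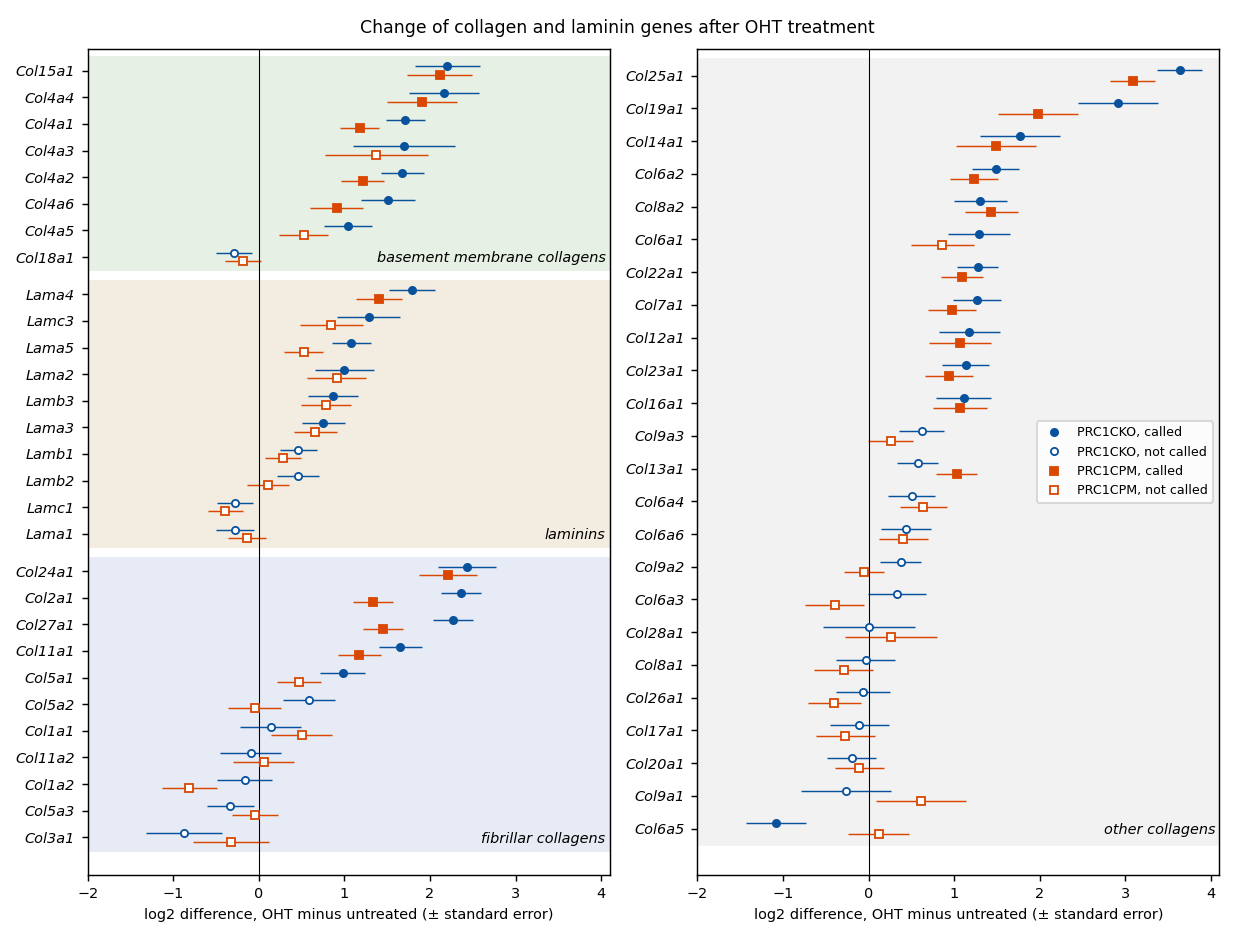
Log2 difference after OHT (x axis, OHT minus untreated, bars show the standard error of the limma fit) of the genes tested, in PRC1CKO (blue circles) and PRC1CPM (orange squares) cells, 3 libraries per condition. Filled symbols passed the threshold; Col25a1 stands farthest to the right at 3.64 and 3.09, and Col6a5 is the only filled symbol below 0.

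Of the 8 basement membrane collagens, the 6 type IV genes form 3 pairs that start next to each other on opposite strands. Col4a1 (GRCm38, chr8:11198423-11312826, minus strand) and Col4a2 (chr8:11312829-11449287, plus strand) encode the 2 chains of the common type IV network, and 2 bases separate their annotated starts. Col4a1 measured 5586, 3386 and 2155 normalised reads in the 3 untreated PRC1CKO libraries and 12751, 11391 and 9891 after OHT. In PRC1CPM cells it measured 3309, 2859 and 2717 untreated and 8882, 5932 and 5647 after OHT. In both lines every OHT-treated library was above every untreated one. Over all rows tested, 22.1% lay above in this way in PRC1CKO and 18.7% in PRC1CPM cells. The rise of Col4a1 was 3.28-fold in PRC1CKO (log2 1.71 ± 0.23 SE, limma adjusted p = 3.8e-08) and 2.26-fold in PRC1CPM cells (1.18 ± 0.23, adjusted p = 0.00011). Without the filter on low counts, the PRC1CPM calls of Col4a1 (adjusted p = 0.053) and Col4a2 (0.087) were lost in limma, and edgeR and DESeq2 called both. Col4a2 rose by 1.68 ± 0.25 and 1.21 ± 0.25 on the log2 scale, from 3436, 1919 and 1164 to 7143, 6602 and 5327 in PRC1CKO cells and from 1924, 1577 and 1408 to 5245, 3628 and 2798 in PRC1CPM cells. The ratio of Col4a1 to Col4a2 reads stayed between 1.63 and 2.02 in all 12 libraries, with means of 1.75 ± 0.11 (SD, n = 3) and 1.79 ± 0.066 without and with OHT in PRC1CKO cells.

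Col4a3 and Col4a4, whose chains join that of Col4a5 in the network of the kidney glomerulus, lie on chromosome 1 with 71 bases between their starts and had few reads. Col4a4 rose from 25.3, 23.1 and 15.2 to 116, 90.7 and 85.5 normalised reads in PRC1CKO cells (log2 2.16 ± 0.41) and from 17.9, 29.2 and 13.6 to 87.8, 66.5 and 72.3 in PRC1CPM cells (1.91 ± 0.41). Col4a3 was between 2.71 and 31.7 normalised reads throughout. Its log2 difference of 1.69 ± 0.60 passed the limma threshold in PRC1CKO cells (adjusted p = 0.035), and the 1.37 ± 0.60 in PRC1CPM cells did not (adjusted p = 0.13). The PRC1CKO call was lost when OHT replicate 1 or 2 or untreated replicate 3 was left out. It was also lost with DESeq2, TMM scaling, Drosophila totals uncorrected by gDNA-seq, no filter on low counts or a pseudocount of 0.1.

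Col4a5 and Col4a6, which supply chains of epithelial and smooth muscle basement membranes, start 1342 bases apart on chromosome X. Col4a6 rose 2.84-fold in PRC1CKO cells, from 174, 100 and 81.2 to 363, 331 and 275 normalised reads, and 1.88-fold in PRC1CPM cells, from 203, 136 and 108 to 390, 251 and 204. The PRC1CPM groups were separated by less than 1 normalised read (203 and 204), and that call (adjusted p = 0.039) was lost without any one of 4 of the 6 PRC1CPM libraries. Col4a5 rose 2.06-fold in PRC1CKO cells, from 381, 199 and 210 to 556, 552 and 456, and differed by 1.44-fold in PRC1CPM cells with overlapping groups (adjusted p = 0.28). The ratio of Col4a5 to Col4a6 was lower with OHT, going from 2.25 ± 0.30 to 1.62 ± 0.077 (SD, n = 3) in PRC1CKO and from 2.11 ± 0.19 to 1.61 ± 0.067 in PRC1CPM cells. The 3 treated ratios were below the 3 untreated ones in each line, where an exact two-sided permutation test of 3 against 3 gives p = 0.1, the smallest it allows. The same test gave 0.6 and 0.8 for Col4a1 and Col4a2 and 0.5 and 0.8 for Col4a3 and Col4a4 in PRC1CKO and PRC1CPM cells. The 250 bases before each of the 2 starts, from the RefSeq promoter table on GRCm38, are shown as those of the type IV pair with the widest gap between its starts. The dinucleotide CG, which reads the same on both strands, is in capitals, and it occurs 10 times before Col4a5 (chrX:141475169-141475418, plus strand) and 3 times before Col4a6 (chrX:141474077-141474326, minus strand), against a median of 6 over all 32851 promoters of the table.
Col4a5: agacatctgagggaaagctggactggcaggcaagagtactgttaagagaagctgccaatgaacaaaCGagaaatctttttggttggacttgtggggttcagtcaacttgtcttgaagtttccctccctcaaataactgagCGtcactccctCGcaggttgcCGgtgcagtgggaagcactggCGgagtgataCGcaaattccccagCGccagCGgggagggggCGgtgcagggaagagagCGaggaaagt
Col4a6: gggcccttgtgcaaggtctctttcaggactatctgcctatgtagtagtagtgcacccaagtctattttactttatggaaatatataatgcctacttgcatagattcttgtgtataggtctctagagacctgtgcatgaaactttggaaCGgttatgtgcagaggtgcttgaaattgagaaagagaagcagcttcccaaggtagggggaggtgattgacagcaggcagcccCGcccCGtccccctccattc

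The remaining basement membrane collagens, types XV and XVIII, carry heparan or chondroitin sulphate chains and release anti-angiogenic fragments. Col15a1 rose from 26.8, 13.9 and 25.4 to 105, 106 and 92.5 normalised reads in PRC1CKO cells (4.59-fold) and from 35.8, 29.2 and 40.7 to 237, 121 and 129 in PRC1CPM cells (4.34-fold). Col18a1, the source of endostatin, was not called, with log2 differences of -0.29 (95% interval -0.71 to 0.13) and -0.19 (-0.61 to 0.23). It was the basement membrane collagen with most reads per kb of gene body, with a mean of 174 normalised reads per kb in untreated and 140 in OHT-treated PRC1CKO cells against 32.4 and 99.2 for Col4a1, and it made up 77.5% of the class in untreated and 48.1% in OHT-treated PRC1CKO cells. On the summed scale per kb, the class therefore went from 224 ± 64.5 (SD, n = 3) to 291 ± 34.7 in PRC1CKO cells and from 179 ± 36.2 to 217 ± 59.2 in PRC1CPM cells.

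**Figure D2:**
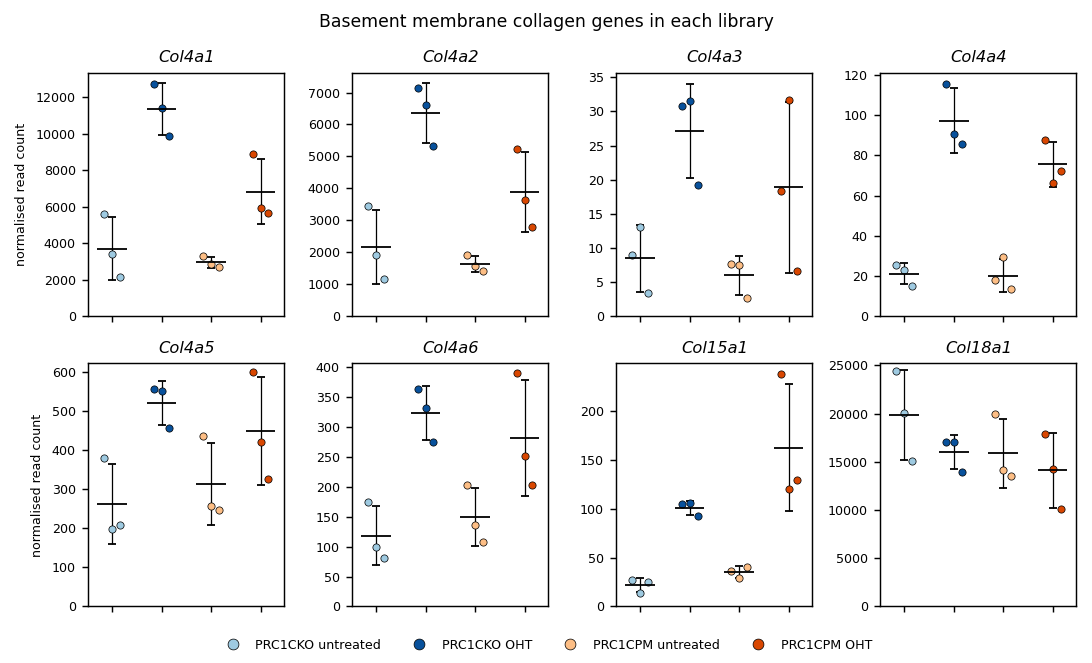
Normalised read count (y axis, linear, each panel on its own scale from 0) of the 8 basement membrane collagen genes in each library, replicates 1 to 3 from left to right, with the mean and SD of the 3 libraries. OHT-treated PRC1CKO libraries lie above all untreated ones for 7 genes, and Col18a1 is the exception, beside 22.1% of all rows tested that lie above in the same way.

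Of the laminin chains, those of laminin-111, the first laminin of the embryo, were not called, and 7 others, among them Lama4 and Lama5, rose in PRC1CKO cells. Lama1 measured 7443, 4257 and 4056 normalised reads in untreated and 5018, 3794 and 3782 in OHT-treated PRC1CKO cells. Lamb1 measured 9697, 6020 and 5390 and then 10416, 9096 and 8689, and Lamc1 20640, 13411 and 16451 and then 13027, 13062 and 15010. The groups overlapped for all 3 chains, whose log2 differences were -0.28, 0.46 and -0.28 in PRC1CKO and -0.14, 0.28 and -0.39 in PRC1CPM cells, none past the threshold. Lamb2, the beta chain of muscle and kidney laminins, was not called either, with log2 differences of 0.45 and 0.11.

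Lama5, the alpha chain of laminin-511 and the member with most reads per kb (18.9% of the summed reads per kb of all members in untreated and 26.8% in OHT-treated PRC1CKO cells), rose in PRC1CKO cells from 17808, 8260 and 11567 to 29100, 22958 and 24060 normalised reads (log2 1.08 ± 0.23, adjusted p = 0.0002). In PRC1CPM cells it measured 20900, 12218 and 15819 untreated and 31948, 16885 and 22231 after OHT, with overlapping groups and a log2 difference of 0.52 (95% interval 0.07 to 0.98, adjusted p = 0.13). Its interaction was -0.56 (95% interval -1.20 to 0.09) and did not pass the threshold. Lama4, the alpha chain of endothelial and muscle laminins, rose 3.46-fold in PRC1CKO cells, from 217, 145 and 142 to 578, 627 and 516, and 2.64-fold in PRC1CPM cells, from 284, 182 and 179 to 715, 496 and 485, with every treated library above every untreated one. Such separation was seen for 22.1% of all rows in PRC1CKO and 18.7% in PRC1CPM cells. Lama2, the alpha chain of skeletal muscle laminin, rose 2.00-fold in PRC1CKO cells to between 116 and 146 normalised reads. Its log2 difference of 0.91 in PRC1CPM cells did not pass the threshold with limma (adjusted p = 0.069) or edgeR (0.10) and did with DESeq2 (0.048). Part of its gene body is shared with a gene on the opposite strand, 4930579H20Rik, and whether the counting used strand is not given in the sources used here.

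Lama3 and Lamb3, an alpha and a beta chain of epithelial laminins that anchor epidermal cells, had log2 differences above 0 in both lines. These were 0.75 and 0.66 for Lama3 and 0.87 and 0.78 for Lamb3 in PRC1CKO and PRC1CPM cells. Both passed the threshold in PRC1CKO cells (adjusted p = 0.025 and 0.026) and neither in PRC1CPM cells (adjusted p = 0.071 and 0.063) with limma. For Lamb3 this depended on the tool, since edgeR called it in both lines (adjusted p = 0.042 in each) and DESeq2 in neither (0.052 in each). Lamc3, the gamma chain of retinal and brain laminins, rose 2.43-fold in PRC1CKO cells from 77.5, 39.2 and 29.6 to 132, 143 and 71.5, with untreated replicate 1 above OHT replicate 3. These calls and that of Lama2 rest on few libraries. Each of the 4 was lost when any one of 2 to 4 of the PRC1CKO libraries was left out, and the number of laminins called higher in PRC1CKO cells ran from 3 (without OHT replicate 1, OHT replicate 2 or untreated replicate 3) to 9 (without untreated replicate 1). Lama4 and Lama5 were called in every such fit, and Lama5 lost its call without the filter on low counts (adjusted p = 0.070).

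**Figure D3:**
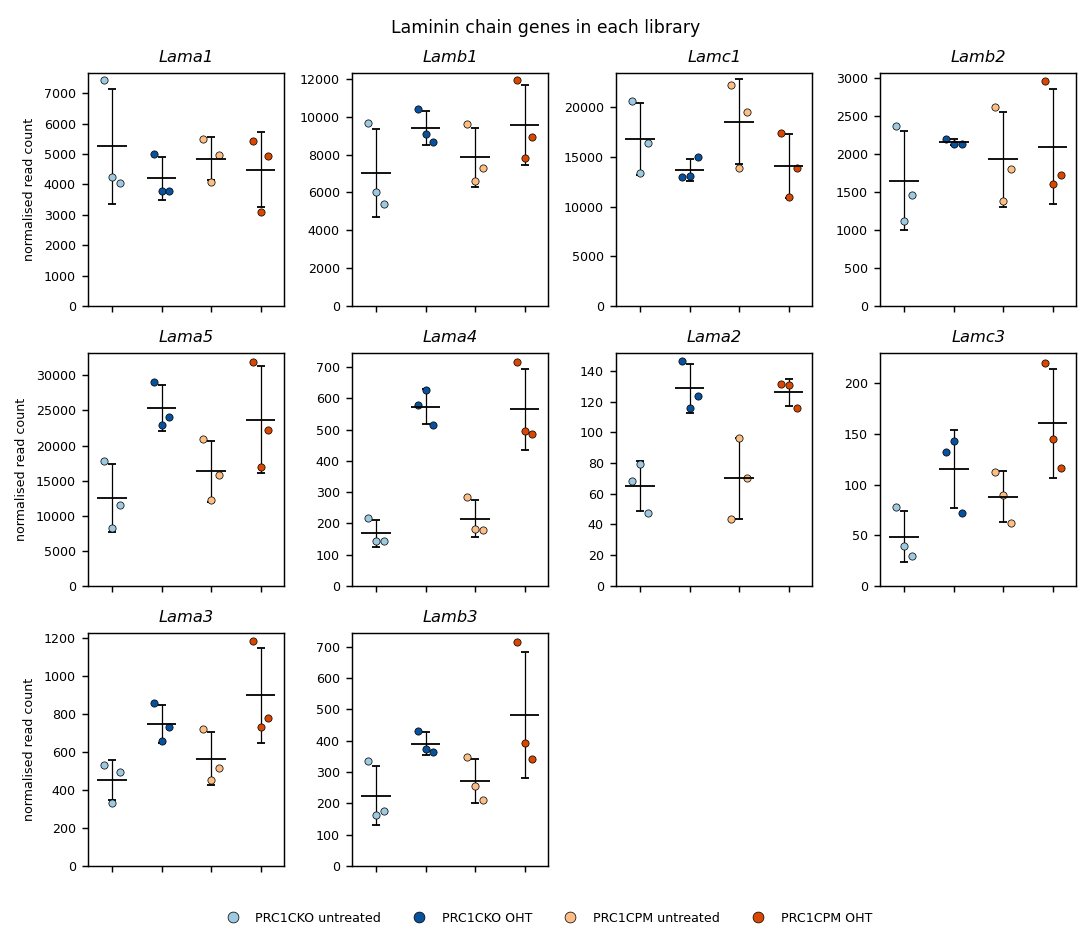
Normalised read count (y axis, linear from 0, separate scale per panel) of laminin chain genes in each library, replicates 1 to 3 from left to right, with the mean and SD of the 3 libraries of each condition. Lama4 shows the clearest separation, with treated libraries at 485 to 715 and untreated ones at 142 to 284.

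Among the fibrillar collagens, Col2a1, Col11a1, Col27a1 and Col24a1 rose in both lines and Col5a1 in PRC1CKO cells. Without the filter on low counts, limma lost the PRC1CPM call of Col11a1 and the PRC1CKO call of Col5a1. Col2a1, the main collagen of cartilage, measured 557, 397 and 350 normalised reads in untreated and 2368, 2361 and 1888 in OHT-treated PRC1CKO cells, a 5.14-fold rise (log2 2.36 ± 0.23, adjusted p = 1.3e-11). In PRC1CPM cells it rose 2.52-fold, from 724, 650 and 615 to 2197, 1654 and 1282. Col11a1, whose chain nucleates the cartilage fibril, rose by 1.65 ± 0.25 and 1.17 ± 0.25 on the log2 scale, from 897, 594 and 477 to 1971, 2109 and 1899 in PRC1CKO cells. Every treated library exceeded every untreated one for both genes in both lines, beside 22.1% of all rows in PRC1CKO and 18.7% in PRC1CPM cells. Col27a1, a cartilage and eye collagen, rose from 390, 269 and 287 to 1717, 1354 and 1471 in PRC1CKO cells (4.83-fold) and from 605, 549 and 497 to 1878, 1419 and 1259 in PRC1CPM cells (2.72-fold). Col24a1, a collagen of developing bone, rose from 38.7, 27.7 and 32.1 to 203, 168 and 169 (5.38-fold) and from 46, 39.6 and 42 to 268, 195 and 153 (4.63-fold). Col5a1, a regulator of fibril diameter, rose 1.97-fold in PRC1CKO cells (limma adjusted p = 0.0033, edgeR 0.0059, DESeq2 0.18), from 4014, 1829 and 2136 to 5594, 4799 and 4461, and its 1.39-fold difference in PRC1CPM cells did not pass the threshold (adjusted p = 0.28).

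The genes of type I and III collagen, the fibrils of bone, tendon and skin, did not pass the limma threshold after OHT in either line. Col1a1 was the fibrillar collagen with most reads per kb in every condition (62.4% of the class in untreated and 44.5% in OHT-treated PRC1CKO cells, 73.4% and 72.9% in PRC1CPM cells) and measured 3667, 1120 and 1581 normalised reads in untreated and 2461, 1686 and 2081 in OHT-treated PRC1CKO cells. Its log2 difference was 0.14 (95% interval -0.58 to 0.85), and in PRC1CPM cells 0.50 (-0.22 to 1.22). Col1a2, the partner chain of Col1a1 in type I collagen, measured 858, 292 and 424 and then 456, 371 and 446 in PRC1CKO cells (log2 -0.17) and 2639, 816 and 878 and then 1180, 458 and 643 in PRC1CPM cells (log2 -0.81). This difference missed the threshold with limma (adjusted p = 0.088) and DESeq2 (0.37) and was called lower by edgeR (0.033) and under TMM scaling (0.038). Col3a1 measured 432, 95.4 and 91.3 and then 127, 77.8 and 61.1 in PRC1CKO cells, where untreated replicate 1 was far above the other 5 libraries (log2 -0.88, 95% interval -1.77 to 0.02). The other fibrillar genes, Col5a2, Col5a3 and Col11a2, had log2 differences from -0.33 to 0.59 in PRC1CKO and from -0.05 to 0.06 in PRC1CPM cells, with overlapping groups. In bulk RNA, a change in the share of cells that express a gene and a change in RNA per cell cannot be told apart, here or for any other member.

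**Figure D4:**
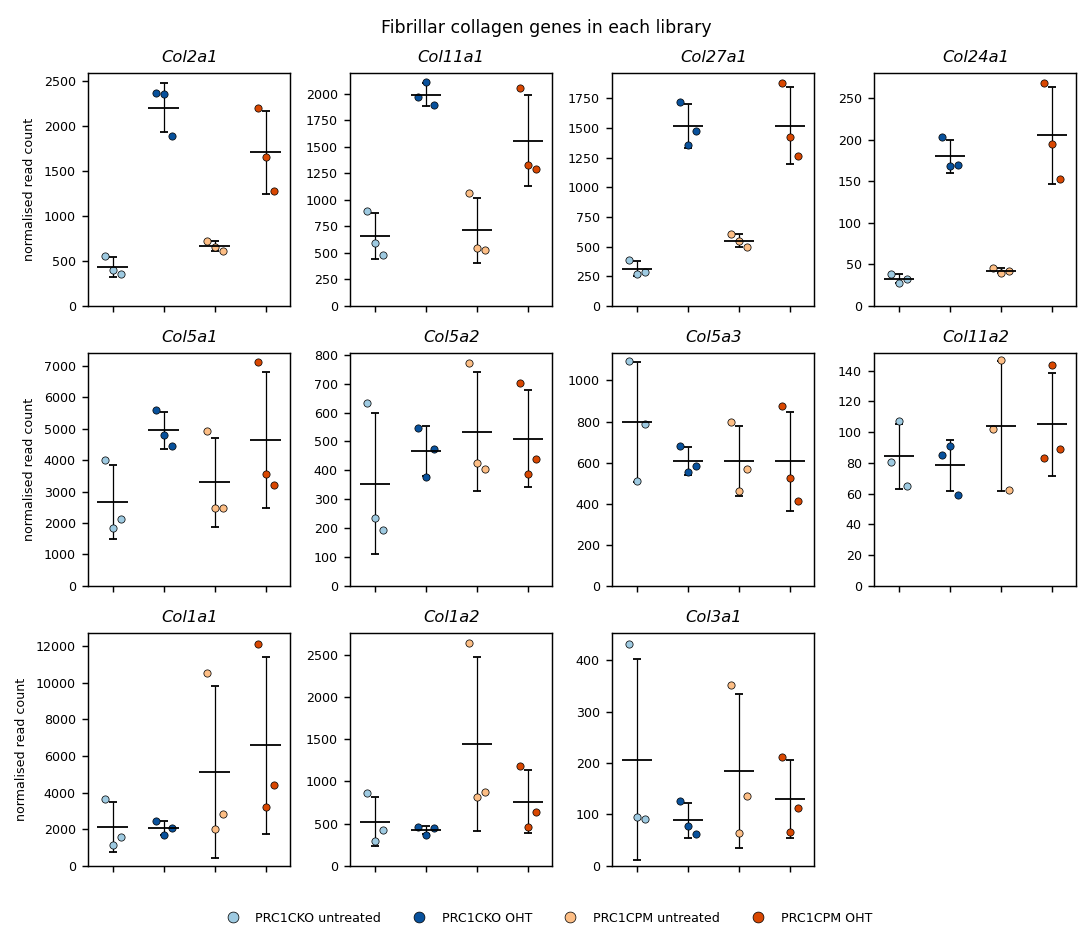
Normalised read count (y axis, linear from 0, separate scale per panel) of the 11 fibrillar collagen genes in each library, replicates 1 to 3 from left to right, with the mean and SD of the 3 libraries. Treated libraries lie above all untreated ones in both lines for Col2a1, Col11a1, Col27a1 and Col24a1, beside 22.1% of all rows in PRC1CKO and 18.7% in PRC1CPM cells. Replicate 1 of PRC1CPM cells stands apart for Col1a1 at 10522 and 12136.

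Upstream sequences of 3 fibrillar genes are shown because they span genes that rose and one that was not called, Col3a1, picked after its values were seen. Each line gives the 250 bases before the start in the RefSeq promoter table (GRCm38), with CG in capitals. Col27a1 (chr4:63215162-63215411, plus strand) held 15 CG, Col24a1 (chr3:145292222-145292471, plus strand) 3 and Col3a1 (chr1:45311288-45311537, plus strand) 0.
Col27a1: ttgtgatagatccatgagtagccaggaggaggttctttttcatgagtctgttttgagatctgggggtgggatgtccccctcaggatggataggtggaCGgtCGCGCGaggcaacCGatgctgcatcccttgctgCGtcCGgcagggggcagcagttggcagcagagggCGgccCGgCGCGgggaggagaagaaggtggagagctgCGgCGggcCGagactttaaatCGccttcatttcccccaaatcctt
Col24a1: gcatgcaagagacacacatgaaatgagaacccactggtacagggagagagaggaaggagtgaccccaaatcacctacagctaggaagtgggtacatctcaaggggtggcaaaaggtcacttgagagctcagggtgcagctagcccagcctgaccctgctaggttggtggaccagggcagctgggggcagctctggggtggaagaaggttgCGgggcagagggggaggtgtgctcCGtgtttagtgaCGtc
Col3a1: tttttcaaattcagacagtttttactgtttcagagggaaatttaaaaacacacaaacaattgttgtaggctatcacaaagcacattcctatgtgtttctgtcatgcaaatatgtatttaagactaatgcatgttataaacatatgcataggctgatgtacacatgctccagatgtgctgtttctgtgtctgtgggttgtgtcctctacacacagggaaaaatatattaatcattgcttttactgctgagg

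Among the other collagens the largest rise was that of Col25a1, a transmembrane collagen of neurons and developing muscle that is also known from amyloid plaques. It measured 194, 186 and 99.8 normalised reads in untreated and 1992, 1798 and 1971 in OHT-treated PRC1CKO cells (12.4-fold, log2 3.64 ± 0.26, adjusted p = 6.6e-16). In PRC1CPM cells it went from 258, 362 and 165 to 2502, 2149 and 1779 (8.49-fold, log2 3.09 ± 0.26, adjusted p = 7.3e-13). The lowest treated library was several-fold above the highest untreated one in each line. The 250 bases before its start (chr3:130180595-130180844, plus strand) are shown as those of the member that changed most and held 18 CG, in capitals.
Col25a1: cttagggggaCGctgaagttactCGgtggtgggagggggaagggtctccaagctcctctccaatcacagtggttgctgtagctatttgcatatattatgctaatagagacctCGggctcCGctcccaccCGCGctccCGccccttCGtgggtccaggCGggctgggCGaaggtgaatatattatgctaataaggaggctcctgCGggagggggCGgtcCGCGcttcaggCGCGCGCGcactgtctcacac

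Of the other transmembrane collagens, Col23a1 rose 2.19-fold and 1.92-fold in PRC1CKO and PRC1CPM cells. Its PRC1CKO call was lost without untreated replicate 3, and its PRC1CPM call without untreated replicate 3 or OHT replicate 1. Col13a1, found at neuromuscular junctions, rose in PRC1CPM cells from 754, 522 and 594 to 1628, 883 and 1382 (2.04-fold, adjusted p = 0.0012), and the difference between 1653, 1630 and 1169 untreated and 1945, 1812 and 2950 treated in PRC1CKO cells was 1.49-fold (adjusted p = 0.09). Col17a1, the hemidesmosome collagen, was not called in either line (log2 -0.11 and -0.27).

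The collagens that coat fibrils (FACIT collagens) had 5 of 9 members higher in each line with all libraries, and these were the same 5. Of all rows tested, 16.5% were higher in PRC1CKO cells, 13.1% in PRC1CPM cells and 11.6% in both. Col19a1, a collagen of muscle and synapses, rose from 14.9, 6.16 and 5.07 to 56, 69.4 and 73.3 normalised reads in PRC1CKO cells (7.56-fold) and from 26.9, 9.42 and 17.6 to 91.7, 61.9 and 55.9 in PRC1CPM cells (3.94-fold). Col14a1 rose by 1.77 ± 0.47 and 1.49 ± 0.47, Col22a1 of muscle-tendon junctions by 1.28 ± 0.24 and 1.09 ± 0.24, Col12a1 by 1.18 ± 0.36 and 1.07 ± 0.36 and Col16a1 by 1.11 ± 0.32 and 1.07 ± 0.32 on the log2 scale. In PRC1CPM cells the calls of Col12a1, Col14a1 and Col16a1 were all lost without OHT replicate 1 or without untreated replicate 3, which left 2 of the 5, Col19a1 and Col22a1. In PRC1CKO cells those of Col12a1 and Col16a1 were lost without untreated replicate 3 and that of Col14a1 without OHT replicate 2. The PRC1CPM groups overlapped for Col12a1, which edgeR did not call in PRC1CPM cells and DESeq2 in neither line. The chains of cartilage type IX collagen, which binds to the type II fibril, were not called, with log2 differences of -0.26, 0.37 and 0.62 for Col9a1, Col9a2 and Col9a3 in PRC1CKO cells and 0.61, -0.05 and 0.26 in PRC1CPM cells. Col9a2 nevertheless was the most abundant of the other collagens per kb, with a mean of 79.5 normalised reads per kb in untreated PRC1CKO cells.

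Type VI collagen makes beaded filaments around muscle, nerve and fat cells from Col6a1, Col6a2 and a further chain. Col6a2 rose from 271, 192 and 156 to 580, 576 and 536 normalised reads in PRC1CKO cells (2.80-fold) and from 280, 254 and 165 to 740, 528 and 394 in PRC1CPM cells (2.35-fold). Its neighbour Col6a1 rose 2.44-fold in PRC1CKO cells (adjusted p = 0.0069, lost without OHT replicate 1 or untreated replicate 3), with a 1.82-fold difference in PRC1CPM cells (adjusted p = 0.12). Among these further chains, Col6a5 was the 1 member that fell, from 128, 112 and 76.1 to 63.3, 38.9 and 45.4 normalised reads in PRC1CKO cells (log2 -1.08 ± 0.35, adjusted p = 0.022). This call was lost without any one of 4 PRC1CKO libraries, and in PRC1CPM cells Col6a5 differed by 0.12 (95% interval -0.59 to 0.83). Col6a3, Col6a4 and Col6a6 were not called, with log2 differences of 0.33, 0.50 and 0.44 in PRC1CKO cells and -0.40, 0.64 and 0.41 in PRC1CPM cells.

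The remaining collagens included Col7a1, the anchoring fibril of skin, which rose 2.40-fold and 1.97-fold, and Col8a2, a collagen of corneal endothelium, which rose 2.48-fold and 2.71-fold in PRC1CKO and PRC1CPM cells. The PRC1CPM call of Col7a1 was lost without OHT replicate 1 or untreated replicate 3. Col8a1, Col20a1, Col26a1 and Col28a1 were not called in either line after OHT, with log2 differences from -0.20 to 0.01 and from -0.40 to 0.26.

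The untreated lines already differed for 4 members. Col27a1 (log2 0.82, adjusted p = 0.042), Col1a2 (1.38, adjusted p = 0.0081) and Col26a1 (1.33, adjusted p = 0.0083) were higher in untreated PRC1CPM than in untreated PRC1CKO cells, and Col13a1 was lower (-1.25, adjusted p = 0.00079), beside 2.21% and 0.478% of all rows (2.69% together). Untreated replicate 1 of PRC1CPM cells, at 2639 normalised reads, set much of the Col1a2 difference, which was 0.84 without it (adjusted p = 0.11) and past the threshold with it. Col13a1 was separated in every library, with 522 to 754 normalised reads against 1169 to 1653, and was the only one of these 4 calls that held with each library left out. Without untreated replicate 1 of PRC1CKO cells, 13 members were called higher in untreated PRC1CPM cells. Without the filter on low counts, 0 members were called in either direction between the untreated lines. After OHT, 1 member differed between the lines, Col1a1, which was 2.71-fold higher in PRC1CPM cells (log2 1.44, adjusted p = 0.02), beside 1.25% of all rows higher and 0.218% lower. Without replicate 1 of OHT-treated PRC1CPM cells the difference was 0.87 and did not pass (adjusted p = 0.42). The call held with edgeR and was lost with DESeq2, under TMM scaling, without the filter on low counts and with a pseudocount of 0.1. At an unadjusted p under 0.05, limma had 3 members lower in OHT-treated PRC1CPM cells, Col13a1 (log2 -0.80), Col4a1 (-0.76) and Col4a2 (-0.75), and limma, edgeR and DESeq2 each called 0. In contrast, TMM scaling, a fit of the 2 groups alone and the replicate block each called 3 members lower. Fits with 1 library left out called 0 to 3 lower. The 6 type IV genes had a median log2 difference of -0.53 in this comparison, against 0.10 over all rows. Of 10 endoderm markers, with a median of -0.66, Gata6 (log2 -1.78) and Pdgfra (-1.04) were called lower in it and 0 higher. Amn (0.44), Cubn (0.16) and Dab2 (0.10) were above 0 and not called. Between the untreated lines the median of these markers was already -0.68, with Gata6 at -1.08 and Pdgfra at -0.79, neither called. The part of the endoderm markers in the type IV values was not tested. Genes of chromosome 11, where Col1a1 lies, had a median log2 difference 0.33 above that of all rows in both comparisons of the lines, and those of chromosome 6, where Col1a2 lies, 0.19 above it untreated. For chromosome 1, where Col4a3 (log2 -0.71 after OHT) and Col4a4 (-0.36) lie, the median differed from that of all rows by -0.26 after OHT and -0.22 untreated. The part of these shifts in the Col1a1, Col1a2 and type IV values was not tested.

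The 55 starts also differed in CpG content, counted within 500 bases of each start on GRCm38. Members that rose in PRC1CKO cells had a median of 45 CpG (n = 30) and those not called 29 (n = 23). Of the members with 30 or more CpG, 22 of 33 rose, and of those with fewer, 8 of 21. Over all rows tested, the medians were 56 for the 2787 rows that were higher and 58 for the rows not called, so the gap seen among the members was absent from the table as a whole. Lamc1 (101 CpG) was not called and Col24a1 (20 CpG) rose 5.38-fold.

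**Figure D5:**
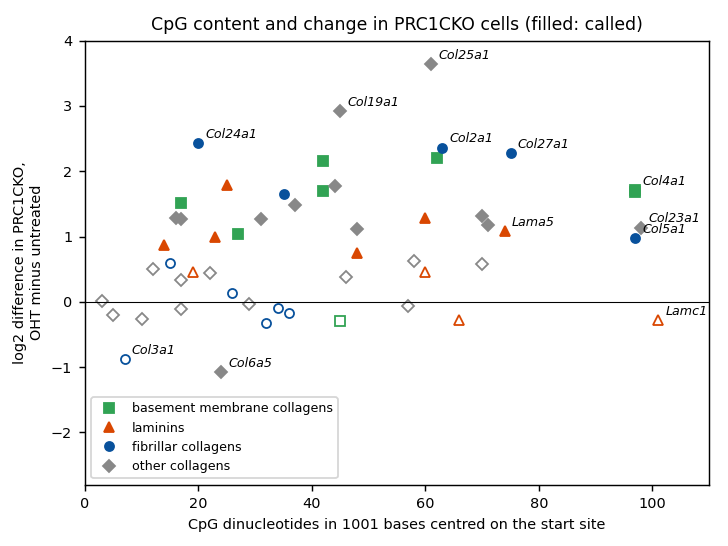
CpG dinucleotides within 500 bases of the start (x axis) and log2 difference after OHT in PRC1CKO cells (y axis) of the genes tested, by class, with filled symbols for genes that passed the threshold. Genes with few CpG include both Col24a1 near 2.43 and Col3a1 near -0.88.

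Some enzymes that fold, modify and cleave collagens rose as well. Of 28 such genes tested, 11 rose in PRC1CKO and 8 in PRC1CPM cells and 0 fell in either by the limma threshold. Over all rows tested, 16.5% and 13.1% were higher and 3.09% and 1.4% lower in the 2 lines. P3h2, a prolyl hydroxylase that acts on type IV collagen, rose from 64.1, 63.1 and 48.2 to 409, 339 and 357 normalised reads in PRC1CKO cells (log2 2.64) and by 1.51 in PRC1CPM cells. Tll1, a procollagen C-proteinase, rose by 2.62 and 1.91, Adamts2, the N-proteinase of types I to III, by 2.17 and 1.55, and Loxl4, a cross-linking lysyl oxidase, by 2.07 and 1.13. Not called were the collagen chaperone Serpinh1 (0.24 and -0.04) and the hydroxylase P4ha1 (-0.74 and -0.36), 2 genes named after their values were seen. Of the genes related to P4ha1, P4ha2 was called higher in both lines (1.70 and 1.52) and P4ha3 in neither (0.54 and 1.09). Both were likewise named after their values were seen.

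Other components of basement membranes gave 8 of 17 genes higher in PRC1CKO and 7 in PRC1CPM cells and 0 lower. The shares of all rows were 16.5% and 13.1% higher and 3.09% and 1.4% lower. Egflam, which encodes pikachurin of the retinal synapse, rose from 74.5, 40 and 22 to 436, 368 and 351 normalised reads in PRC1CKO cells (log2 3.21) and by 2.71 in PRC1CPM cells, Smoc2 by 2.53 and 2.18 and Fras1, of the epidermal basement membrane, by 1.89 and 1.30. Frem3 was called higher in PRC1CKO cells (2.05) on at most 15.3 normalised reads in any library. Perlecan (Hspg2) and nidogen-2 (Nid2), the abundant linkers of the laminin and type IV networks, were not called, with log2 differences of 0.51 and -0.03 in PRC1CKO cells and 0.44 and -0.02 in PRC1CPM cells, and both were named after their values were seen. Among 13 receptors of collagens and laminins, 5 rose in each line and 0 fell, beside the same shares of all rows. The collagen-binding integrin chain Itga2 rose from 17.9, 3.08 and 6.76 to 112, 114 and 68 normalised reads in PRC1CKO cells (log2 3.52) and by 2.71 in PRC1CPM cells, the fibrillar collagen receptor Ddr2 by 2.63 and 1.36, Itga11 by 1.80 and 1.28 and the laminin-binding chain Itga7 by 1.49 and 1.24.

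Markers of cells that make these matrix proteins were counted in the same comparisons. Of all rows, 16.5% were higher and 3.09% lower in PRC1CKO cells, and 13.1% and 1.4% in PRC1CPM cells. Of 10 markers of extraembryonic endoderm, the embryonic source of type IV collagen and laminin-111, 7 were higher and 1 (Cubn) lower in PRC1CKO cells and 8 higher in PRC1CPM cells. Gata6 rose by 2.96 and 2.26 and Gata4 by 2.14 and 1.63 on the log2 scale. Their summed normalised read count was 3673, 2271 and 1022 in untreated and 5124, 3816 and 3652 in OHT-treated PRC1CKO cells, and 1226, 1238 and 1258 and then 3027, 2058 and 2687 in PRC1CPM cells, with none at 0 in every library. Pdgfra was the most abundant over all libraries, whereas Cubn led in untreated PRC1CKO cells (mean 931) and Dab2 in both PRC1CPM groups (325 and 560). Cubn fell to a mean of 109 in OHT-treated PRC1CKO cells, against the direction of the other markers called, and it is part of these sums. Of 10 mesenchymal markers, Dcn, Lum and Fap did not pass the filter, and 4 of the 7 tested were higher and 1 (Postn) lower in PRC1CKO cells and 3 higher in PRC1CPM cells. Their sum was 1515, 807 and 1084 and then 1982, 1937 and 1792 in PRC1CKO cells, and 2023, 1169 and 1326 and then 2958, 1586 and 2024 in PRC1CPM cells, with Thy1 the most abundant. Chondrocyte markers gave 3 of 6 and endothelial markers 2 of 5 higher in PRC1CKO cells and 2 of each in PRC1CPM cells, and Pecam1 fell in both lines (log2 -1.64 and -1.59). The summed chondrocyte markers, led by Acan, had means of 1165 ± 333 (SD, n = 3) and 1860 ± 168 without and with OHT in PRC1CKO cells and 1565 ± 412 and 2339 ± 751 in PRC1CPM cells. The summed endothelial markers, led by Pecam1, had means of 4675 ± 574 and 2133 ± 93.9 in PRC1CKO cells and 7566 ± 1501 and 3562 ± 814 in PRC1CPM cells. The endothelial markers called higher, Cdh5 (log2 2.06 and 1.98) and Kdr (2.19 and 1.69), went against the direction of this sum. The part of these cell types in the changes of the collagen and laminin genes was not tested.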

How the data were processed

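The authors removed rDNA reads (Bowtie 2), aligned what remained to a joint mouse and Drosophila genome (mm10 plus dm6) by STAR followed by Bowtie 2, dropped duplicates with Sambamba and counted uniquely aligned reads over gene bodies. Whether the count used strand is not given in the sources used here. The deposited table holds a normalised signal, the read count of each of 20633 transcript rows divided by a spike-in size factor that the authors corrected with matched gDNA-seq. Its columns of the authors' own log2 fold changes and adjusted p-values, from their comparisons, were not used, nor was their list of partially derepressed genes.

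Every value was a whole multiple of 1 step per library (100% within a tolerance of 0.02 of a read), which gave the reads. The 16940 rows that reached 10 reads in 3 or more libraries were fitted as log2(normalised read count + 1) with limma 3.58.1 in R 4.3.3, with 4 group means over 12 libraries, empirical Bayes moderation with a trend and Benjamini-Hochberg adjustment. Fold changes are therefore on the log2(value + 1) scale and understate changes of low genes. edgeR 4.0.16 and DESeq2 1.42.0 on the recovered reads were alternatives. The replicates are called biological by the study, and nothing more is known of their separation.

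Members were taken by the symbol rule alone, and that rule and the lists were set with earlier results of these data known. Named were members called in any comparison, the type IV pairs, the laminin-111 chains and, of each further list, the 4 genes called that changed most in PRC1CKO cells. Members outside this rule are named to account for all. Loxl2, Nid1, Hmcn2, Lair1, Gp6 and Fbxo15, which belong to the lists, were not analysed here, and Emcn did not pass the filter. Sequences are from RefSeq (GRCm38.p6), whose promoter table matched 40 of the 55 members. It was not used for Col12a1, Col14a1, Col1a1, Col22a1, Col26a1, Col2a1, Col4a3, Col5a2, Col9a3, Lama1, Lama3, Lama4, Lamc1 and Lamc3, among others. For 1 member, included in the counts, no result of its own is reported here, and the figures leave it out.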

Additional observations from a re-analysis of the deposited data

Results flagged for a closer look

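Col6a3, a further chain of type VI collagen, had log2 differences of opposite sign in the lines (0.33 and -0.40), neither past the threshold (limma adjusted p = 0.61 in each). It measured 56.6, 52.3 and 59.2 normalised reads in untreated and 71.4, 59.2 and 83.7 in OHT-treated PRC1CKO cells, so that every treated library was above every untreated one, narrowly for the closest pair (59.24 and 59.19). In PRC1CPM cells it measured 128, 104 and 108 untreated and 94.6, 97.4 and 67.9 after OHT, so that every treated library was below. The interaction of line and treatment was -0.73 on the log2 scale, with a limma adjusted p of 1.0 over all rows. Over all rows, 22.1% lay above in this way in PRC1CKO cells and 3.70% below in PRC1CPM cells.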

How the results depend on the processing

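Each library is scaled by its spike-in, and genes with few reads are measured with large counting error. The median log2 difference of all rows in PRC1CKO and PRC1CPM cells was 0.12 and 0.10 as deposited. It was -0.0019 and -0.0072 under TMM scaling, and -0.029 and 0.40 under Drosophila totals uncorrected by gDNA-seq. With one library left out, 21 to 36 members were called higher in PRC1CKO cells (30 with all) and 15 to 28 in PRC1CPM cells (22 with all). The low values were without PRC1CKO untreated replicate 3, and without PRC1CPM untreated replicate 3 or OHT replicate 1. In every such fit 19 of the 31 PRC1CKO calls and 15 of the 22 PRC1CPM calls were kept. The classes ran from 6 to 7 (basement membrane), 5 to 6 (fibrillar), 3 to 9 (laminins) and 7 to 14 (other) in PRC1CKO cells and 4 to 6, 4 to 6, 1 to 5 and 6 to 12 in PRC1CPM cells. Members called lower ran from 0 to 2 and from 0 to 1. Between the lines, 0 to 3 members were called higher and 0 to 3 lower after OHT, and 1 to 13 higher untreated, the 13 without PRC1CKO untreated replicate 1.

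The directions that turned were those of differences not called after OHT. In PRC1CKO cells Col1a1 was -0.032 with DESeq2, -0.029 with edgeR and -0.0092 with the uncorrected totals, which also gave Lama1 0.16 and Col18a1 0.11 in PRC1CPM cells. Leave-one-out ranges crossed 0 for Col1a1 (-0.23 to 0.62), Col1a2 (-0.51 to 0.26), Col26a1 (-0.49 to 0.17) and Lama1 (-0.44 to 0.0017) in PRC1CKO cells and for Col1a1 (-0.064 to 1.21), Col18a1 (-0.38 to 0.034), Lama1 (-0.30 to 0.11) and Col6a5 (-0.041 to 0.25) in PRC1CPM cells. Without a filter 16 members were higher in PRC1CKO cells (laminins 1, other collagens 6) and 11 in PRC1CPM cells (basement membrane 2, laminins 1, other 5), and 0 in either direction between the lines. Calls lost there included Col4a5, Col5a1, Col7a1 and Lama5 in PRC1CKO cells and Col4a1, Col4a2, Col4a6, Col7a1, Col11a1 and Col13a1 in PRC1CPM cells. The uncorrected totals gave 3 laminins higher in PRC1CKO and 7 in PRC1CPM cells, 2 members lower in PRC1CKO cells, and 4 after OHT and 1 untreated higher between the lines. TMM gave 1 member lower in PRC1CPM cells and 3 lower between the lines after OHT. edgeR called 2 lower in PRC1CKO and 1 lower in PRC1CPM cells, and DESeq2 none higher (0) between the lines after OHT. A pseudocount of 0.1 gave 1 laminin higher in PRC1CPM cells and 0 members between the lines after OHT. Fits of 2 groups alone gave 2 lower in PRC1CKO cells, 1 lower and 1 laminin higher in PRC1CPM cells, and 3 higher and 3 lower between the lines after OHT. Type IV genes alone gave 6 higher in PRC1CKO and 4 in PRC1CPM cells. The causes were not tested.

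Replicate numbers were not stated to pair the libraries, and the correlation of same-numbered deviations (mean 0.20, lowest 0.099 over 18 pairs) did not pass 0.1 in every pair, although each of the 12 libraries correlated best with its own number. The replicate block gave 2 members lower in PRC1CKO cells, 6 laminins higher and 1 member lower in PRC1CPM cells, 6 higher and 3 lower between the lines after OHT, 13 higher untreated and 2 lower for the interaction.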
